A study of Homo sapiens with 15 samples.

Results

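The 3 libraries titled No_alk, from RNA of U2OS osteosarcoma cells that was not alkylated by its title and condition label, were compared for total RNA level with the 12 alkylated libraries of the same series. They were chosen by title from 15 libraries in all. The alkylated libraries were 3 each from cells sorted as G1, Early_S, Late_S and G2, and the 4 phases were weighted equally. Per the labels, unsynchronised cells were given 4-thiouridine together with EdU, a marker of replicating DNA, over 45 minutes. They were then fixed in glyoxal and methanol and sorted by replication and DNA content, and 500 ng of RNA went into each QuantSeq 3' end library. The protocol text is the same for all 15 samples and includes the alkylation step, so that only the title and the condition label set the No_alk libraries apart. The labels do not say which phase, gate or culture the No_alk cells came from, and a difference between No_alk and alkylated libraries cannot be told apart from a difference in cells or handling. The labels also do not say that the 3 libraries of a group are separate cultures, so the p-values measure only the spread between these libraries.

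SLAM-seq finds RNA made during a pulse of 4-thiouridine. The analogue enters new transcripts in place of uridine, an alkylating agent then adds a bulky group to its sulphur, and reverse transcriptase pairs the alkylated base with G, which gives a T-to-C conversion in the read. RNA that is not alkylated still holds the analogue but yields few conversions, and such libraries serve as the background. The total level used here counts all reads of a gene near its poly(A) site, converted or not. The question here was which genes had a different total level without alkylation, and how that related to their labelled share (the percentage of their reads with a T>C conversion in the alkylated libraries), to the number of T positions covered per read, and to their pattern across phases.

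The No_alk libraries held 17480980 to 17618997 reads in annotated 3' end regions, within the 16096695 to 21803972 of all 15. Reads in those regions were 58.9% to 60.2% of each No_alk library, against 64.7% to 69.7% of each alkylated library, with no overlap (two-sided exact permutation test of 3 against 12 libraries, p = 0.0022, the smallest it can give, adjusted p = 0.00513 over 7 library-wide measures). Covered T positions per read averaged 18.8 ± 0.0872 in No_alk and 18.4 ± 0.168 in alkylated libraries (SD, exact permutation p = 0.00659, adjusted p = 0.0115). Multimapped reads, 10.97% in No_alk and 11.4% in alkylated libraries, did not pass (exact permutation p = 0.0703). These permutation tests treat all 15 libraries as exchangeable, but the libraries of a group resemble each other. Mean reads in regions ran from 64.8% in G1 (SD 0.17) to 69.1% in Early_S (SD 0.48). The p-values therefore do not set No_alk apart from any other group that lies at an extreme. T>C reads were 1.01% of reads in No_alk and 15.2% in alkylated libraries. The first principal component of total levels (33.8% of the variance) placed the No_alk libraries at -53.1 to -51.8 and the alkylated ones at 4.11 to 28.8. Summed levels of 9 osteoblast lineage markers found in the files were 1967 to 2013 CPM in No_alk and 2339 to 3006 CPM in alkylated libraries. For these marker sums CPM is the read count scaled to all reads in regions. For the levels of single genes below, CPM is the read count scaled to the normalised library size. Blood cell markers summed to at most 4.88 CPM in No_alk and 3.94 CPM in alkylated libraries, and endothelial markers to at most 4.29 CPM and 7.84 CPM.

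**Figure D1:**
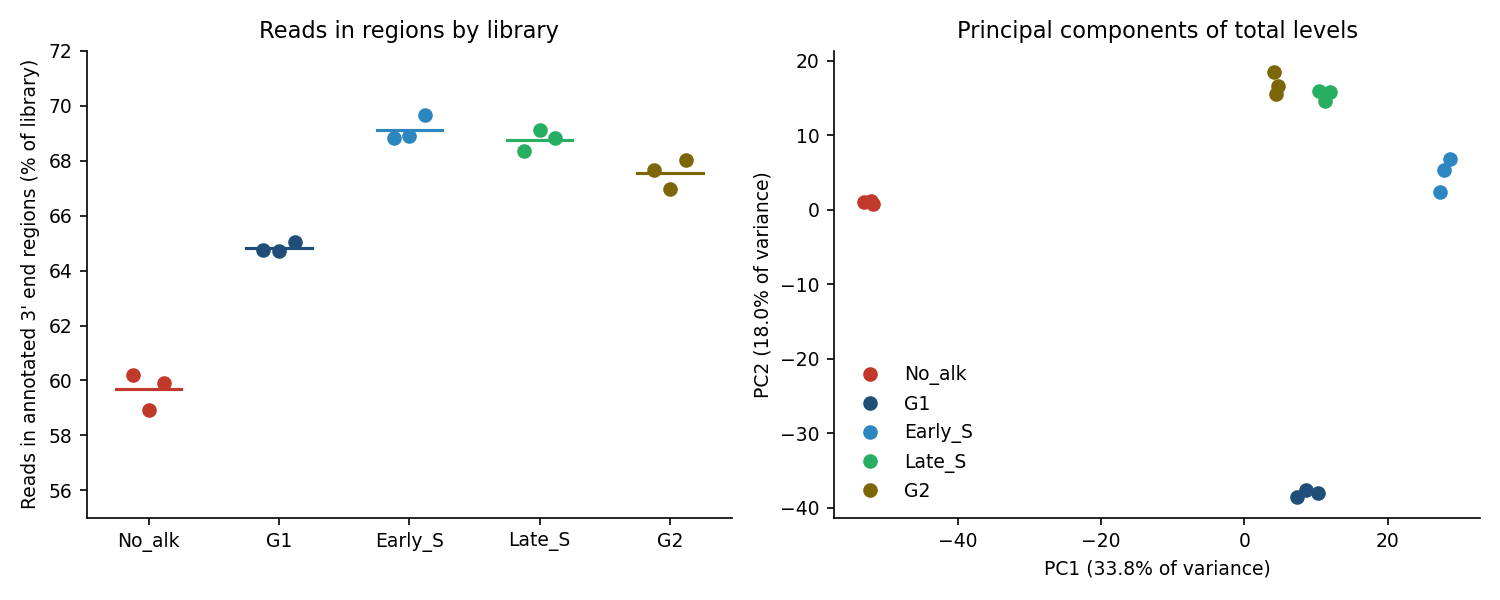
Reads in annotated 3' end regions as a percentage of the library (left, 1 point per library, line at the group mean, axis not from 0) and the first principal components of total levels (right, 1 point per library). The 3 No_alk libraries lie below all 12 alkylated ones in the left panel, at 58.9% to 60.2%, and apart from them on PC1 in the right panel.

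Total levels differed for a large part of the transcriptome. Of 13972 genes tested, 6070 (43.4%) were called between No_alk and the mean of the phases, 3140 (22.5%) higher and 2930 (21.0%) lower in No_alk (edgeR quasi-likelihood test, Benjamini-Hochberg adjusted p under 0.05). Among called genes the median size of the change was 0.69 on the log2 scale, and 1005 genes were over 2-fold higher and 819 over 2-fold lower in No_alk. In bulk RNA, fewer cells of a type and less RNA per cell cannot be told apart. All 3 No_alk libraries lay above all 12 alkylated libraries for 1521 genes (10.9% of those tested) and below all 12 for 1420 (10.2%).

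Because the phase of the No_alk cells is not given, each gene was also asked to lie above the highest or below the lowest phase. In that test, which takes the weakest of the 4 phase contrasts, 790 genes (5.65%) were above and 1022 (7.31%) below every phase in No_alk (edgeR, adjusted p under 0.05). The mean level in No_alk lay within the range of the 4 phase means for 5439 genes (38.9%). Against single phases, 5206 genes (37.3%) were called against G1, 6109 (43.7%) against Early_S, 4602 (32.9%) against Late_S and 4078 (29.2%) against G2. These 4 contrasts share the No_alk libraries.

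The genes that stood highest without alkylation were of mixed function. CYR61, a matricellular protein that binds integrins, had 876, 839 and 751 CPM in No_alk libraries, against 63.2 to 227 CPM with a median of 83.3 in alkylated ones. It was 8.28-fold higher in No_alk (log2 change 3.05 ± 0.06, SE, edgeR adjusted p = 6.05e-38), and its lowest No_alk library lay above the G1 libraries, the highest of the phases. Its reads came from 1 region of 920 bases on GRCh38, chr1:85583043-85583962. GADD45B, a stress-induced regulator of growth arrest, had 128, 125 and 133 CPM in No_alk against 10.4 to 43.0 CPM (median 14.8) in alkylated libraries, a log2 change of 2.87 ± 0.14. IGFBP7, a secreted binding protein of insulin-like growth factors, had 163, 188 and 157 CPM in No_alk against 19.6 to 33.4 CPM (median 24.6), a log2 change of 2.72 ± 0.10. These 2 genes, like CYR61, had no alkylated library within the range of the No_alk libraries, a separation that the rule for naming genes required.

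Among others chosen by that rule, F3, which encodes tissue factor, the trigger of coagulation, had 76.8, 66.9 and 58.0 CPM in No_alk against 3.40 to 18.8 CPM (median 7.81), a log2 change of 2.999 ± 0.16. TUFT1, which encodes tuftelin, had 255, 264 and 268 CPM in No_alk against 30.4 to 66.5 CPM (median 52.5), a change of 2.45 ± 0.08. JAG1, a Notch ligand, had 34.0, 23.4 and 27.8 CPM in No_alk against 2.03 to 15.6 CPM (median 5.10), a change of 2.32 ± 0.22. Each of the 3 was above every phase in No_alk. SYNE1, which encodes the nuclear envelope protein nesprin-1, had 286, 339 and 346 CPM in No_alk against 52.7 to 100.03 CPM (median 69.4), a change of 2.18 ± 0.08 over 16 regions with reads. EPHB1, an ephrin receptor, CDK5R1, an activator of CDK5, CYP27B1, which activates vitamin D, ALPK2 and YJEFN3 were between 2.33 (YJEFN3) and 2.56 (EPHB1) higher on the log2 scale. Among genes named by the rule, the largest rise was that of PCF11, a factor of transcript cleavage and termination, at 25.6, 20.1 and 17.6 CPM in No_alk against 0 to 1.46 CPM (median 0.852) in alkylated libraries. Its log2 change of 4.75 ± 0.42 rests on a near-zero level in the alkylated libraries.

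Of the genes that stood lowest without alkylation, several were nearly absent from No_alk. TMEM52B, a membrane protein, had 0.784, 0 and 1.25 CPM in No_alk against 7.26 to 34.8 CPM (median 24.3) in alkylated libraries, a log2 change of -4.89 ± 0.39. ETV7, an ETS-family transcription factor, had 0.784, 0.550 and 0.598 CPM in No_alk against 6.33 to 104 CPM (median 12.1), a change of -4.85 ± 0.29. TNNT2, the cardiac troponin T gene, had 1.18, 0.934 and 0.707 CPM in No_alk against 13.7 to 27.9 CPM (median 20.6), a change of -4.41 ± 0.29. GSG1, a germ cell-associated gene, changed by -4.40 ± 0.24. The No_alk levels of TMEM52B, ETV7, TNNT2 and GSG1 were at most 2.80 CPM, and all 4 were below every phase.

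At higher levels, GABARAPL1, a member of the ATG8 family of autophagy proteins, had 17.9, 20.2 and 13.3 CPM in No_alk against 86.1 to 165 CPM (median 115), a log2 change of -2.75 ± 0.12. PDLIM1, a PDZ and LIM domain protein of the actin cytoskeleton, had 14.6, 12.6 and 13.6 CPM in No_alk against 40.2 to 148 CPM (median 107), a change of -2.75 ± 0.12. BMP4, a bone morphogenetic protein, had 27.7, 28.2 and 25.02 CPM in No_alk against 74.8 to 226 CPM (median 123), a change of -2.22 ± 0.11. SCARA3, a scavenger receptor-like protein, had 128, 108 and 100.3 CPM in No_alk against 379 to 558 CPM (median 456), a change of -2.04 ± 0.07. KRTAP2-3, a keratin-associated protein, had 122, 138 and 124 CPM in No_alk against 328 to 1352 CPM (median 354), its highest levels being in G1, a change of -1.92 ± 0.06. MFAP5, a component of microfibrils, fell by 2.14 and NEFL, the light neurofilament, by 1.88 on the log2 scale, both below every phase in No_alk. PTPRR, a tyrosine phosphatase, MAOA, monoamine oxidase A, SAMD9, APOL6 and the joined name of AC004691.2 and AQP1 had log2 changes between -2.25 (APOL6) and -3.29 (PTPRR). All of these genes, from GABARAPL1 on, were below every phase in No_alk.

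**Figure D2:**
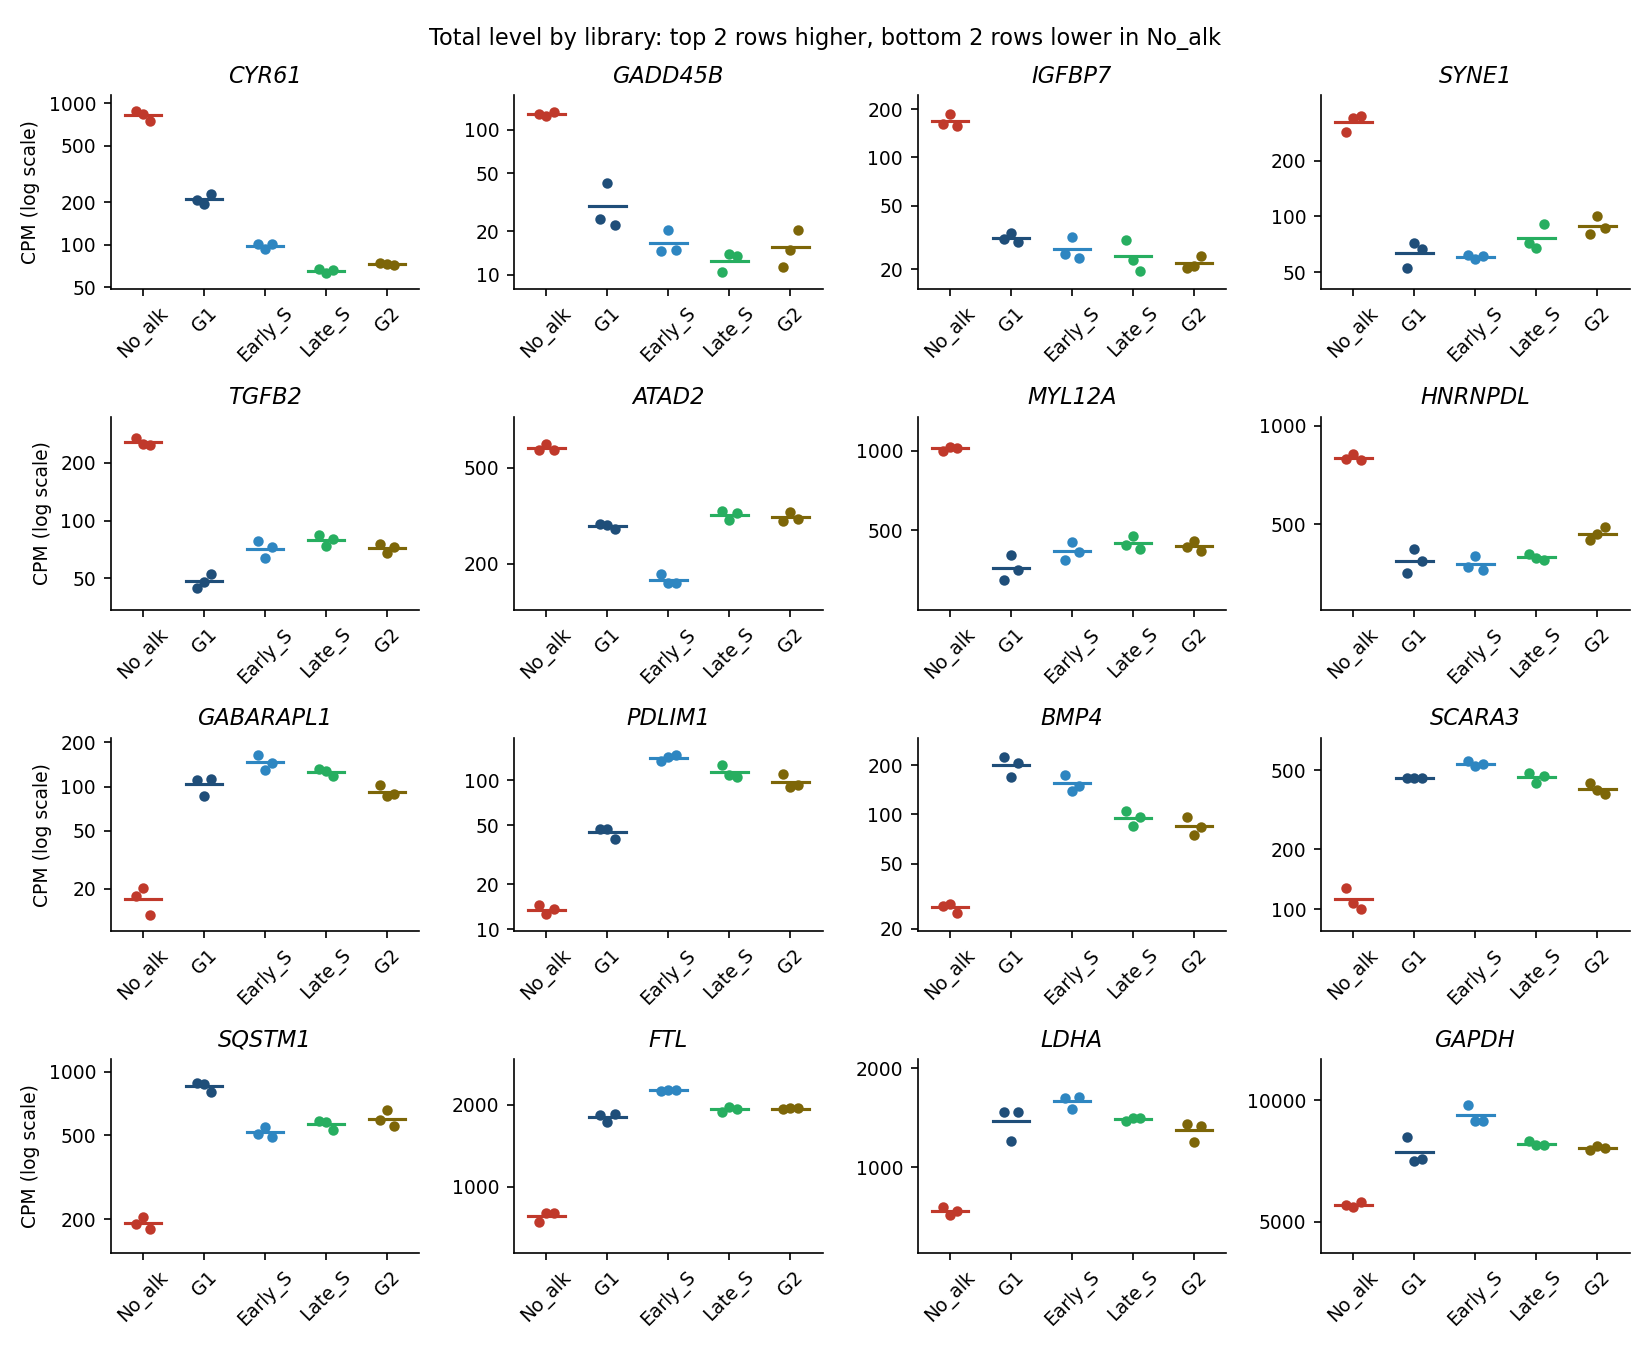
Total level in CPM (log scale, axes differ between panels) of 16 named genes, 1 point per library and a line at the group mean, with No_alk left of G1, Early_S, Late_S and G2. In the top 2 rows the No_alk points lie above, and in the bottom 2 rows below, all 12 alkylated points; CYR61 had 751 to 876 CPM in No_alk against 63.2 to 227 CPM in alkylated libraries.

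Immediate early genes, whose transcripts are short-lived and induced within minutes by growth factors or stress, were called higher in No_alk for 21 (53.8%) and lower for 6 (15.4%) of 39 tested, where 22.5% of all genes tested were higher and 21.0% lower. Their median log2 change was 0.52, against 0.01 over all genes tested. The list's medians against single phases were -0.13 (G1), 0.26 (Early_S), 0.99 (Late_S) and 0.90 (G2). Of the 39 members, 4 lay above and 2 below every phase, against 5.65% and 7.31% of all genes tested. JUN, which forms AP-1 with FOS, had 301, 276 and 286 CPM in No_alk against 78.7 to 265 CPM (median 114), the highest of them in G1, and a log2 change of 1.12 ± 0.07. Against G1 alone the log2 change of JUN was 0.18 (edgeR adjusted p = 0.133), and JUN was not called above every phase. IER2 had 244, 189.7 and 219 CPM in No_alk against 57.8 to 216 CPM (median 74.3), which overlap, and 57.5% of its reads were multimapped. MYC had 61.1, 63.9 and 62.8 CPM in No_alk, inside the alkylated range of 18.2 to 72.7 CPM, with a mean of 63.7 CPM in G1. FOS itself had 0, 0.824 and 0 CPM in No_alk against 1.38 to 7.84 CPM (median 3.44), and was lower by a log2 change of -3.59 ± 0.80. EGR1 had 29.8 to 32.2 CPM in No_alk, inside the alkylated range of 10.8 to 114 CPM (edgeR adjusted p = 0.239). PLK2, a polo-like kinase, had 117, 106 and 97.3 CPM in No_alk against 30.6 to 79.4 CPM (median 37.7), a change of 1.29 ± 0.10, above every phase.

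Genes of ribosome biogenesis and splicing were more often higher than lower in No_alk. Of 37 ribosome biogenesis genes tested, 23 (62.2%) rose and 2 (5.41%) fell, against 22.5% higher and 21.0% lower over all genes tested. Their median log2 change was 0.40 against the mean of the phases, and 0.24 (G1), 0.83 (Early_S), 0.26 (Late_S) and 0.14 (G2) against single phases. Of the 37, 8 lay above and 2 below every phase, against 5.65% and 7.31% of all genes tested. Of 37 splicing and RNA-binding genes 21 (56.8%) rose and 7 (18.9%) fell (median 0.27), and 10 lay above and 2 below every phase. WDR43, a factor of the small-subunit processome, had 144, 170.4 and 178 CPM in No_alk against 38.6 to 115 CPM (median 81.8), a change of 1.07 ± 0.08. HNRNPDL, an RNA-binding protein that regulates splicing, had 793, 820.3 and 787 CPM in No_alk against 355 to 489.5 CPM (median 398), a change of 0.98 ± 0.05. PNO1 (0.86 ± 0.08), the helicase gene DDX21 (0.59 ± 0.06), HNRNPH1 (0.85 ± 0.06, 22.7% of reads multimapped) and SRSF7 (0.76 ± 0.06) were also above every phase. The main SRSF7 region, with 90.2% of its reads, changed by 0.53. A further SRSF7 region, with 4.55% of its reads, had 54.0 CPM in No_alk and 1.68 CPM in alkylated libraries (log2 change 5.21). Zinc finger genes, most of them transcription factors with KRAB domains, were higher for 110 (26.2%) of 420 tested, a share near the 22.5% of all genes, and lower for 19 (4.52%, against 21.0% of all genes), with a median of 0.39. ZNF420 had 59.1, 65.4 and 59.6 CPM in No_alk against 9.05 to 19.3 CPM (median 15.8), a change of 2.03 ± 0.16, and ZNF260 changed by 1.98 ± 0.15.

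The actin cytoskeleton and the extracellular matrix moved in part. Of 29 actin and serum response factor (SRF) target genes tested, 17 (58.6%) rose and 6 (20.7%) fell in No_alk, against 22.5% and 21.0% of all genes tested. Of the 29, 13 lay above and 3 below every phase, against 5.65% and 7.31% of all genes, and the list's median labelled share was 9.003%. MYL12A, a myosin regulatory light chain, had 999.8, 1035 and 1028 CPM in No_alk against 325 to 475 CPM (median 422), a change of 1.303 ± 0.05. TPM4, a tropomyosin, had 769.6, 797 and 791 CPM in No_alk against 358 to 423 CPM (median 375), a change of 1.04 ± 0.05, with 25.02% of reads multimapped. ACTN1, alpha-actinin, changed by 0.67 ± 0.04, and ACTB, beta-actin, by 0.30 ± 0.03, with 77.2% of the ACTB reads multimapped. Of 30 matrix genes, 12 rose and 8 (26.7%) fell, with a median of 0.16. PLOD2, a lysyl hydroxylase of collagen, changed by 1.36 ± 0.07. TGFBI, a secreted matrix protein, went the other way, at 77.7, 99.9 and 92.0 CPM in No_alk against 211 to 311 CPM (median 249.7), a change of -1.48 ± 0.08.

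Genes of glycolysis, the respiratory chain and cholesterol synthesis were more often lower than higher in No_alk, where 21.0% of all genes tested were lower and 22.5% higher. Of 17 glycolytic enzymes tested 12 (70.6%) fell and 2 (11.8%) rose in No_alk (median -0.53). Of 80 nuclear-encoded respiratory chain subunits 41 (51.25%) fell and 3 (3.75%) rose (median -0.26), and of 23 cholesterol synthesis genes 16 (69.6%) fell and 1 (4.35%) rose (median -0.51). LDHA, lactate dehydrogenase A, had 760.1, 716 and 739 CPM in No_alk against 1196 to 1639.7 CPM (median 1412), a change of -0.94 ± 0.05, with 29.4% of its reads multimapped. ALDOA, an aldolase, had 559, 554 and 551 CPM in No_alk against 912 to 1268 CPM (median 1032), a change of -0.91 ± 0.05. GAPDH, often used to normalise, had 5495, 5445 and 5582 CPM in No_alk against 7091 to 9734 CPM (median 7751), a change of -0.54 ± 0.03, below every phase. ATP5B, a subunit of ATP synthase, changed by -0.73 ± 0.05. STARD4, a carrier of sterols, changed by -1.29 ± 0.14. The hypoxia targets SLC2A3, a glucose transporter, and NDRG1 changed by -1.56 ± 0.15 and -1.54 ± 0.08. They were chosen by their small p and were the lowest members of a list whose median was -0.01, with 6 of 16 (37.5%) lower, 2 (12.5%) higher and changes up to 1.72.

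Genes of the oxidative and amino acid stress responses were more often lower in No_alk. Of 17 targets of NRF2, the regulator of antioxidant genes, 13 (76.5%) fell and 2 (11.8%) rose (median -0.64), and of 22 genes of the ATF4 response 15 (68.2%) fell and 2 (9.09%) rose (median -0.67), against 21.0% lower and 22.5% higher over all genes tested. FTL, the ferritin light chain, had 741, 797 and 799 CPM in No_alk against 1729.9 to 2268 CPM (median 1939.6), a change of -1.34 ± 0.04, with 20.4% of its reads multimapped. SQSTM1, the autophagy receptor p62, had 190.0, 206 and 181 CPM in No_alk against 493 to 881 CPM (median 584), a change of -1.69 ± 0.06. PHGDH, the first enzyme of serine synthesis, changed by -1.24 ± 0.08, ASNS, asparagine synthetase, by -1.61 ± 0.10, and NUPR1 by -2.22 ± 0.16. ATF4 itself had 494, 437 and 467 CPM in No_alk, inside the alkylated range of 231 to 778 CPM (log2 change 0.07, adjusted p = 0.462). Proteasome subunits fell for 19 (55.9%) and rose for 5 (14.7%) of 34 (median -0.28). Tubulins and chaperonin subunits fell for 11 (61.1%) and rose for 4 (22.2%) of 18 (median -0.20), and endoplasmic reticulum chaperones fell for 9 (45%) and rose for 1 (5%) of 20 (median -0.18). The metallothioneins MT2A and MT1E, which bind zinc and copper, changed by -0.48 ± 0.03 and -0.80 ± 0.04.

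Ribosomal protein genes had medians near 0. Cytosolic ones were lower for 34 (40%) and higher for 14 (16.5%) of 85 tested (median -0.07), and mitochondrial ones were lower for 23 (31.9%) and higher for 11 (15.3%) of 72 (median -0.08), against 21.0% lower and 22.5% higher over all genes tested. RPLP0 changed by -0.34 ± 0.04 with 33.3% of its reads multimapped. Translation factors (including kinases and inhibitors with EIF symbols) were split, with 20 (32.8%) lower and 18 (29.5%) higher of 61. Heat shock proteins were split as well, with 5 (31.25%) each way of 16. HSPA8 changed by 0.43 ± 0.05 with 81.8% of its reads multimapped, and HSP90AA1 by -0.58 ± 0.05. Lysosomal genes were lower for 10 (40%) and higher for 4 (16%) of 25, with a median of -0.07. Interferon and NF-kB targets were lower for 8 (40%) and higher for 4 (20%) of 20 tested (median -0.46), yet NFKBIA, the inhibitor of NF-kB, had 171, 155 and 161 CPM in No_alk against 37.4 to 69.3 CPM (median 49.1), a change of 1.68 ± 0.09. LIF, a cytokine, rose in No_alk by 2.24 ± 0.24 on the log2 scale. Of 6 long noncoding RNAs tested, 1 was higher and 1 lower, and MALAT1 and NEAT1 were not analysed here.

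**Figure D3:**
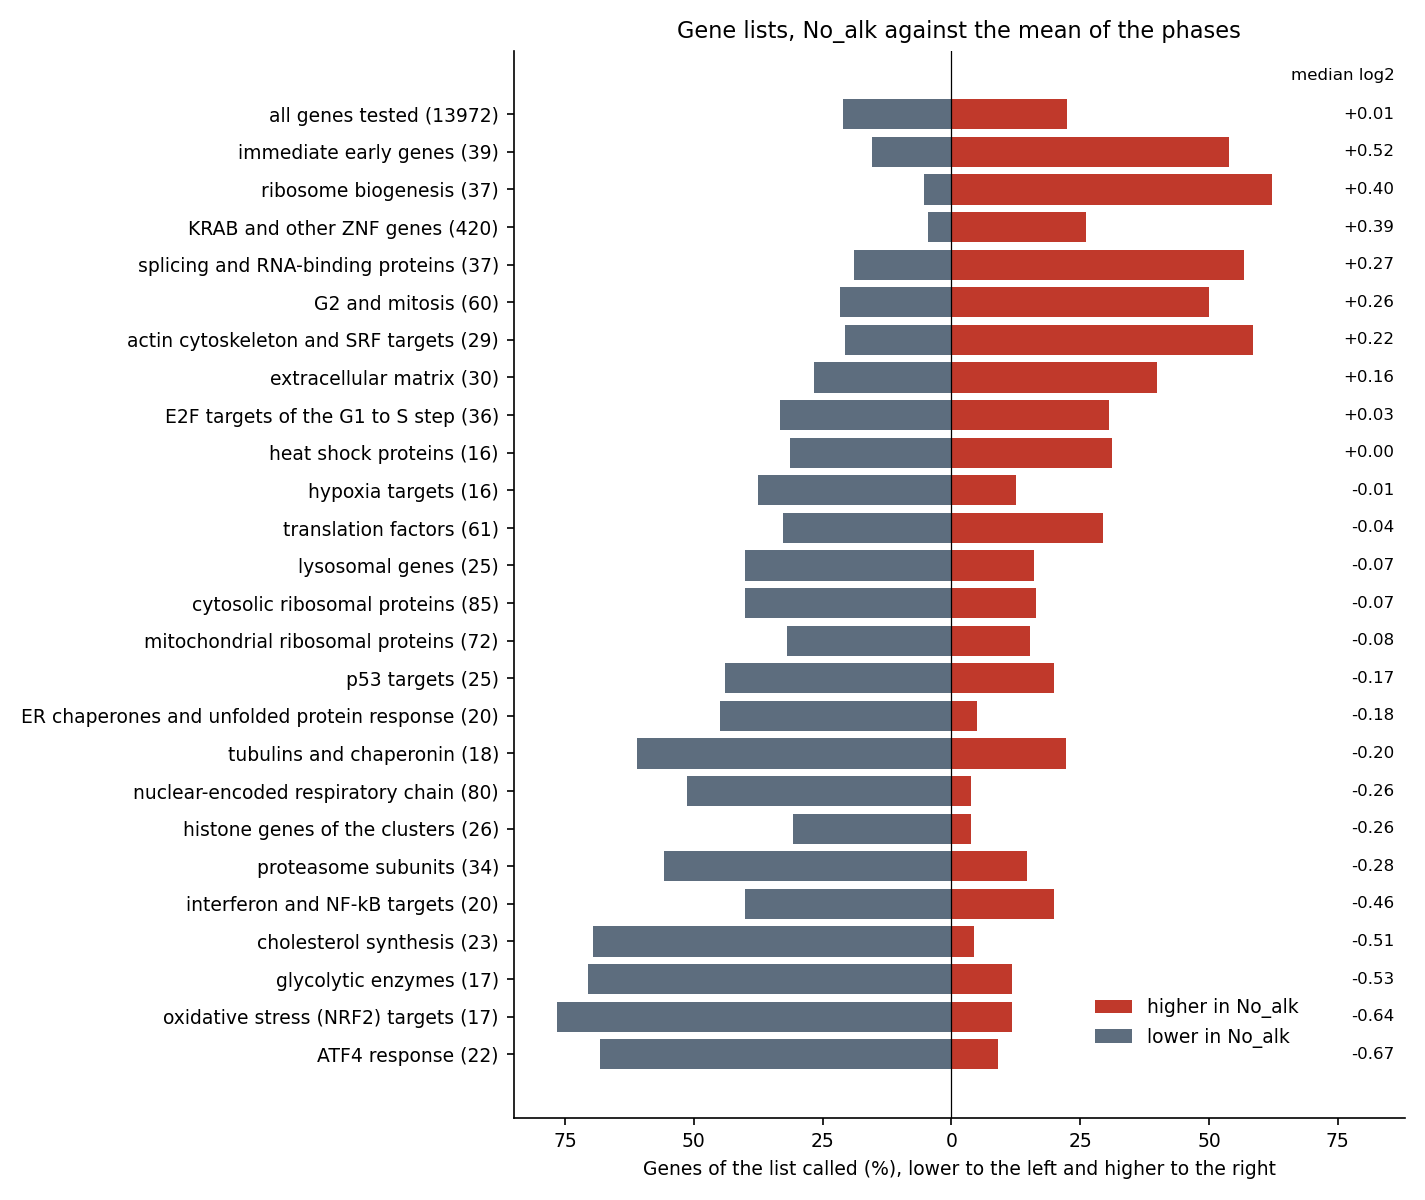
Percentage of the tested genes of each list (number tested in brackets) called higher (right, red) and lower (left, grey) in No_alk than in the mean of the phases, for lists with 10 or more tested genes (without the 2 added after the values were seen), ordered by the median log2 change printed at the right, with all genes tested on top. Among the lists plotted, immediate early genes had the highest median (0.52) and the ATF4 response the lowest (-0.67).

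Cell cycle lists moved according to which phase served as the comparison. G2 and mitosis genes rose for 30 (50%) and fell for 13 (21.7%) of 60 tested against the mean of the phases (median 0.26). Over all genes tested 22.5% were higher and 21.0% lower, which is the background for each list in this paragraph. The share of G2 and mitosis genes that fell and that of p53 targets that rose were near it. The medians of G2 and mitosis genes were 1.18 against G1, 0.51 against Early_S, -0.16 against Late_S and -0.55 against G2. CCNB1, the mitotic cyclin, had 162, 193 and 187 CPM in No_alk, inside the alkylated range of 116 to 356 CPM, with a mean of 132 CPM in G1 and 348 CPM in G2. ANLN, anillin, which acts in cytokinesis, had 203, 239 and 197 CPM in No_alk, near its G2 mean of 212 CPM and above its G1 mean of 62.0 CPM. Targets of E2F, which drive entry into S phase, were split with 11 (30.6%) higher and 12 (33.3%) lower of 36. RRM2, a ribonucleotide reductase subunit, and MYBL2 changed by -0.68 ± 0.06 and -0.79 ± 0.06 and lay below every phase, whereas ATAD2, a bromodomain ATPase, had 593, 627 and 591 CPM in No_alk against 167 to 330.03 CPM (median 296), a change of 1.19 ± 0.05. Targets of p53 fell for 11 (44%) and rose for 5 (20%) of 25, with medians of -0.95 (G1), -0.21 (Early_S), 0.20 (Late_S) and 0.12 (G2). CDKN1A, the p21 inhibitor, had 163, 167 and 161 CPM in No_alk against 133 to 720.3 CPM (median 313), inside the range of the phases. Of 26 histone genes tested out of 37 named, 8 (30.8%) were lower and 1 (3.85%) higher, with a median of -1.71 against G1 and of 0.14 to 0.22 against the other phases.

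The phase pattern of each gene went with its change. An F-test across the 12 alkylated libraries called 4742 genes (33.9%), which were grouped by the phase with the highest mean. Genes highest in G2 had a median log2 change of 0.40, and 725 of 1204 (60.2%) were higher and 95 (7.89%) lower in No_alk. Over all genes tested 22.5% were higher and 21.0% lower. Genes highest in Early_S had a median of -0.32, and 130 of 1255 (10.4%) were higher and 670 (53.4%) lower. The medians were 0.09 for the 1674 genes highest in G1, 0.20 for the 609 highest in Late_S and -0.04 for the 9230 genes not called across phases. Set against single phases, genes highest in G2 had medians of 0.64 (G1), 0.68 (Early_S), 0.24 (Late_S) and 0.04 (G2), while genes highest in G1 had -0.35 (G1), 0.23 (Early_S), 0.22 (Late_S) and 0.22 (G2). In each of the 4 classes the median against its own phase was the lowest of the 4. Choosing a class by its highest phase lowers the value of No_alk against that phase, and these medians are a description with no test. The range of the 4 phase means held the No_alk mean for 2163 of the 4742 genes called across phases (45.6%). Of the 4742, 426 were called above and 432 below every phase, against 5.65% and 7.31% of all genes tested. Median levels were 43.3 to 67.9 CPM in the 4 classes and 9.11 CPM among genes not called across phases. The effect of level on the number called was not tested.

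**Figure D4:**
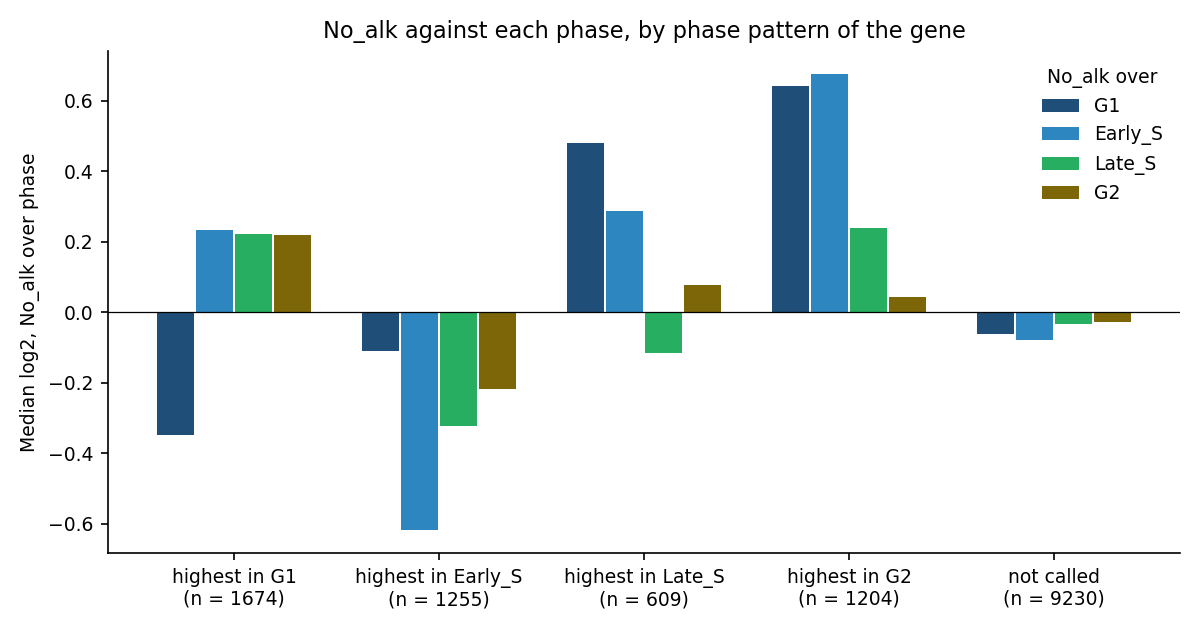
Median log2 of No_alk over each phase (bars, G1 to G2) for genes grouped by the phase with their highest level, and for genes not called across phases (number of genes in brackets). Genes highest in G2 have medians of 0.64 over G1 and 0.04 over G2, and genes highest in Early_S of -0.62 over Early_S.

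The change in total level rose with the labelled share. Genes were ordered by labelled share, averaged over the 4 phases, and put in 10 bins of equal size. In the lowest bin (shares up to 5.61%) the median log2 change was -0.31, with 7.30% of genes higher and 28.0% lower in No_alk. In the highest bin (50.4% to 100%) it was 0.38, with 33.1% higher and 7.87% lower. From the lowest bin to the highest the medians were -0.31, -0.25, -0.18, -0.10, 0.02, 0.10, 0.12, 0.20, 0.29 and 0.38. Across 13970 genes Spearman's rho was 0.280 and Pearson's r 0.157, and across the 3884 genes with at least 50 CPM they were 0.379 and 0.328. Genes are not independent replicates, and the share and the change both use reads of the alkylated libraries. With the share taken from G1 alone and the change taken against Late_S and G2 alone, the highest bin exceeded the lowest by 0.79, against 0.69 in the main comparison. That choice of phases was not neutral. In the main bins the highest bin had medians of 0.57 over Late_S and 0.47 over G2, but 0.06 over G1. The 0.79 therefore cannot show how much the shared reads matter.

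By library, the median deviation of the lowest bin from the mean of the 4 phases, on the log2(CPM + 2) scale, was -0.224 to -0.208 in the 3 No_alk libraries, and lowest at -0.0887 in the alkylated libraries, so No_alk stood apart there. In the highest bin the No_alk libraries were at 0.223 to 0.246 and the G1 libraries at 0.195 to 0.235, which overlap, while Early_S, Late_S and G2 were at -0.130 to -0.00773. Against single phases the highest bin had medians of 0.06 (G1), 0.36 (Early_S), 0.57 (Late_S) and 0.47 (G2), and the lowest -0.30 (G1), -0.51 (Early_S), -0.33 (Late_S) and -0.26 (G2). The order also held inside each phase class. Among genes not called across phases the medians were -0.25 for shares under 10%, -0.07 for 10% to 20%, 0.10 for 20% to 40% and 0.34 for over 40%, and among genes highest in G2 they were 0.29, 0.33, 0.42 and 0.59.

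Single genes departed from this order. ETV7 (labelled share 74.1%), BMP4 (74.6%), SLC2A3 (74.6%) and KRTAP2-3 (61.4%) had high shares and were lower in No_alk. IGFBP7 (6.63%), TPM4 (7.58%) and YJEFN3 (4.15%) had low shares and were higher in No_alk. CYR61 (72.9%), F3 (75.5%), JAG1 (73.5%), JUN (86.7%), NFKBIA (83.7%), PLK2 (86.4%) and LIF (87.9%) had high shares and were higher. SCARA3 (7.46%), PHGDH (3.60%), ASNS (4.00%), GAPDH (4.55%) and FTL (6.19%) had low shares and were lower. The immediate early list had a median share of 73.4% and a median change of 0.52, zinc finger genes 34.0% and 0.39, p53 targets 38.9% and -0.17, and respiratory chain genes 8.22% and -0.26, against 17.0% for all genes tested.

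T content went the same way, with a smaller span. Covered T positions per read were the count of covered T positions over the reads of the gene in the alkylated libraries. In the lowest of 10 bins (at most 12.2 T positions per read) the median change was -0.19, with 10.3% of genes higher and 24.3% lower in No_alk, and in the highest (23.7 to 38.7) it was 0.16, with 32.4% higher and 14.5% lower. The highest median, 0.21, was in the ninth bin. Spearman's rho was 0.162 over 13970 genes. Deviations by library were -0.154 to -0.132 in No_alk in the lowest bin, with the lowest alkylated library at -0.0710, and 0.117 to 0.138 in No_alk in the highest bin, with the highest alkylated library at 0.0643. Labelled share and T content were themselves related (Spearman's rho 0.188 over 13970 genes). A read with more T positions has more chances of a conversion. Split by both into 3 by 3 groups, the median change ran from -0.30 with low share and low T content (8.10% higher, 36.5% lower) to 0.35 with high share and high T content (40.8% higher, 8.02% lower), and it increased along each measure within every level of the other.

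**Figure D5:**
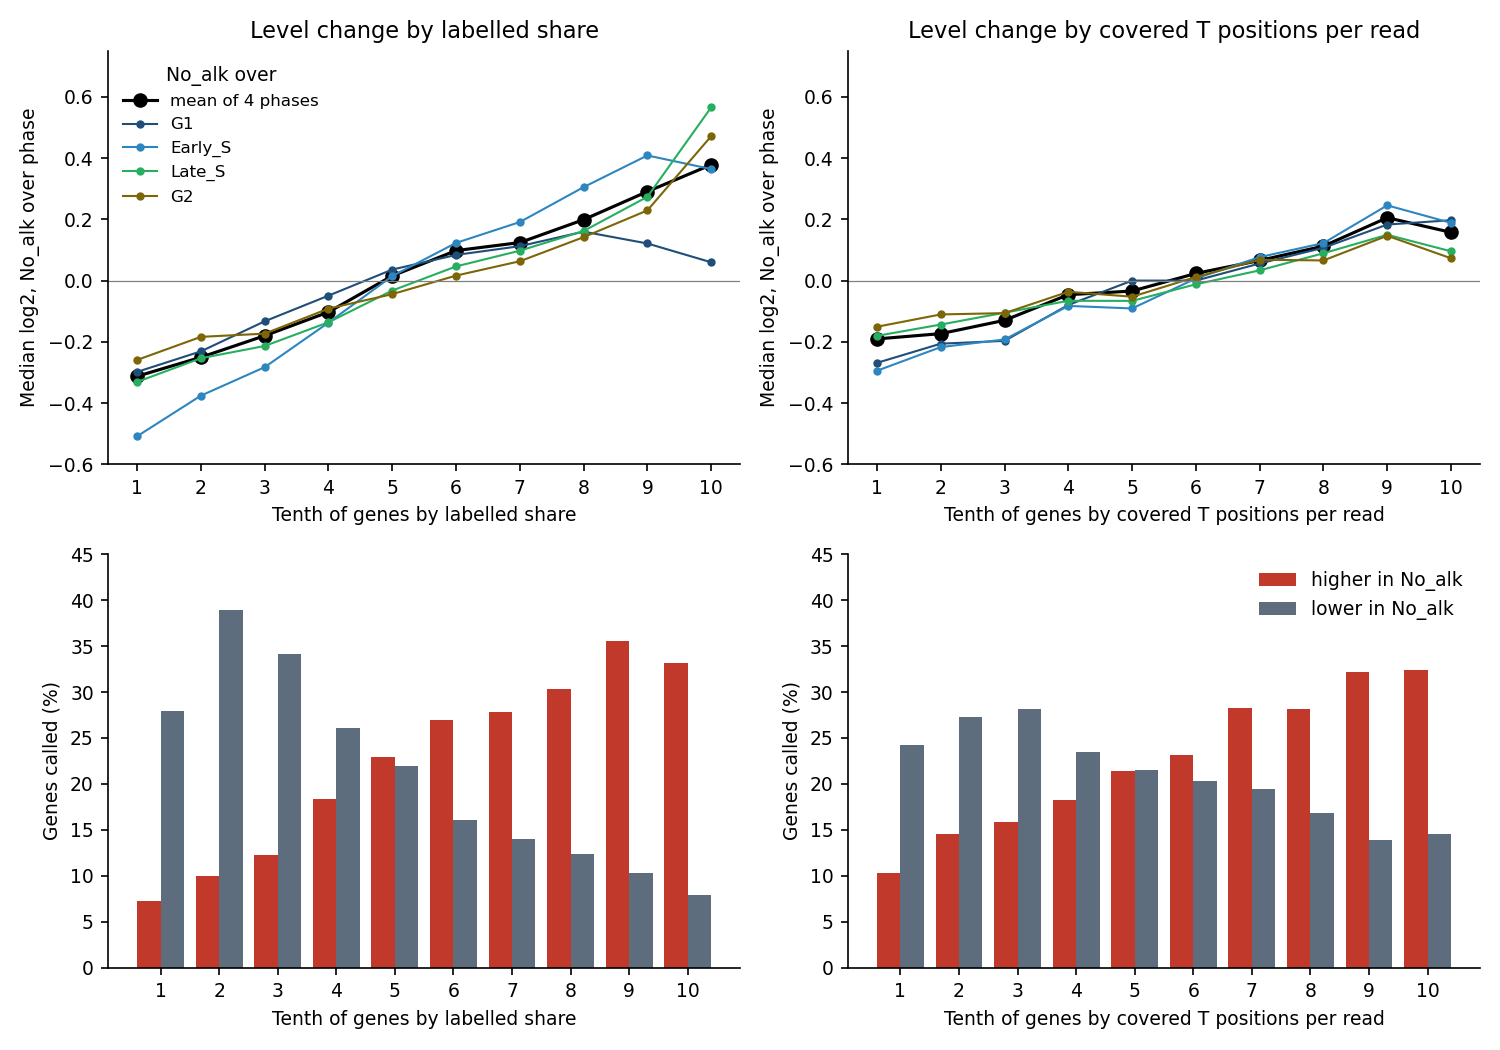
Top, median log2 of No_alk over the mean of the phases (black) and over each phase (colours) in 10 equal bins of genes by labelled share (left) and by covered T positions per read (right); bottom, percentage of genes called higher (red) and lower (grey) in No_alk in each bin. The median rises from -0.31 in the lowest to 0.38 in the highest bin of labelled share, and from -0.19 to 0.16 for T positions per read, where the ninth bin is highest at 0.21.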

How the data were processed

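Per the labels, 15 libraries of U2OS cells were made, and each deposited table lists reads, T>C reads, multimapped reads and covered and converted T positions for 68625 regions (hg38, merged Ensembl release 90 annotation, slamdunk 0.2.4 per the file headers). The counts were used as deposited. The CPM values deposited by the authors served only to derive library totals. The conversion rate, a fraction deposited by the authors, was recomputed from summed counts. How many conversions make a T>C read is not given in these sources. Counts of regions were summed by name (19531 names, of which 481 join several genes). Reads carried no molecular identifiers.

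Levels were tested with edgeR 4.0.16 (R 4.3.3, TMM, filterByExpr with count minimum 10 and total minimum 15) over 15 libraries in 5 groups without a replicate block, two-sided, with Benjamini-Hochberg adjustment over all genes. SE was taken as the absolute log2 change divided by the root of F. Gene p-values in the text are from edgeR. The range test takes the largest p of 4 phase contrasts. Tested on simulated data for the comparison with the mean of the phases (13648 genes), the fit recovered 74% of 100 genes changed 2-fold. It recovered 49% of 100 genes changed by 0.585 on the log2 scale, and called 3 of 13448 unchanged genes. Changed genes were drawn only from those above a minimum of mean reads, so the recovery rates do not cover the genes with the fewest reads. The simulation had no differences between phases and changed few genes, equally up and down, whereas 43.4% of the real genes were called. Its rates hold for that setting and may differ in the real data.

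Members, lists and the naming rule were chosen with earlier results of these data known. The rule named up to 12 genes each way with the largest change (20 CPM or more, no overlap of libraries), up to 6 outside all phases (100 CPM or more), up to 3 per list by smallest p, and genes fixed by name. Replicate pairs within a group differed by 11.2 to 20.5 chi-square units per degree of freedom, so none were merged. Some genes that met the rule are not reported here.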

Additional observations from a re-analysis of the deposited data

How the results depend on the processing

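With RLE size factors, scaling by total reads in regions, DESeq2 1.42.0, limma voom, no filter on low counts, and names with at most 10% multimapped reads, the number of genes higher in No_alk was 2833 to 3579 and lower 2565 to 3238, all within 1.5 times the main 3140 and 2930. Tested region by region, 3400 of 23963 regions were higher and 3154 lower. Scaling by total reads moved the median of all genes by 0.063 (log2), with 3579 higher and 2565 lower. Same-numbered libraries of different groups correlated only weakly, with none of 30 pairs above 0.1 (highest 0.0503). Yet 13 of 15 libraries correlated best with one of their own number, so a weak pairing by replicate number is not excluded. A fit with a replicate block gave 3193 higher and 2969 lower. Leaving out 1 library gave 2607 to 3217 higher, 2447 to 2956 lower, 602 to 810 above and 851 to 1010 below every phase. The highest minus the lowest bin of labelled share was 0.69, and became 0.79 with the share from G1 against Late_S and G2, 0.53 at 50 CPM or more, 0.62 by conversion rate, 0.73 among genes not called across phases (chosen after seeing the data), and 0.71 to 0.73 without 1 No_alk library. For T content it was 0.35, and became 0.49 with T positions counted in No_alk, 0.46 with the T fraction of the region, 0.21 at 50 CPM or more, 0.28 within the middle range of labelled share (chosen after seeing the data), and 0.36 to 0.38 without 1 No_alk library. With the phase test at 0.001, the median for genes highest in Late_S was 0.26 and in G2 0.43; without No_alk 3 the G2 value was 0.38, and leave-one-out values for G2 ran from 0.38 to 0.40. Of 120 called named genes, LINC00094 lost its call without No_alk 2, and EEF1A1 under total-read scaling and without No_alk 2 or 3; none reversed. The cause of each shift was not tested. On simulated data without differences between phases the range test recovered 55% of 2-fold changes, so in such data not all changes of that size were called.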

Other observations

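A list of YAP targets, genes of the Hippo pathway's transcriptional coactivator, was drawn up after the values were seen, so its counts carry no independent weight. Of 21 tested, 13 (61.9%) were higher and 3 (14.3%) lower in No_alk, against 22.5% and 21.0% of all genes tested, with a median log2 change of 0.74. Of the 21, 10 lay above and 1 below every phase, against 5.65% and 7.31% of all genes tested. TGFB2, a transforming growth factor, had 269, 253 and 248 CPM in No_alk against 44.4 to 84.5 CPM (median 72.9) in alkylated libraries, a change of 1.94 ± 0.07, above every phase. CTGF, which like CYR61 encodes a matricellular protein, averaged 483 CPM in No_alk and 334 CPM in alkylated libraries (log2 change 0.57), and ANKRD1 averaged 421 CPM in No_alk and 610.4 CPM in alkylated libraries (-0.36). A list of cleavage and polyadenylation factors, also drawn up after the values were seen, had 9 (42.9%) higher and 2 (9.52%) lower of 21, PCF11 among them, with a median of 0.10. SCAF4, which binds the tail of RNA polymerase II, changed by 1.00 ± 0.19.

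Gene architecture also went with the change, as a description. Genes with the shortest regions (11 to 393 bases, 1398 genes) had a median of -0.16, and those with the longest (5627 bases or more) 0.21. By gene span from RefSeq (13477 genes matched), the 1348 shortest genes had a median of -0.21 and the 1348 longest 0.19. By chromosome, the shares below stand against 22.5% higher and 21.0% lower over all genes tested. Genes on chromosome 13 were higher for 27.4% and lower for 10.3% of 223 (median 0.23), and chromosomes 18 and 4 had medians of 0.19 and 0.17. Genes on the X chromosome were higher for 10.5% and lower for 24.4% of 524 (median -0.14). Chromosome 19 was like X in direction, with 15.6% higher and 25.3% lower of 1037 (median -0.14). On chromosome 22, 16.5% were higher and 32.1% lower of 340 (median -0.09). The median labelled share of X genes was 13.2%, against 16.1% on chromosome 19 and 17.0% for all genes tested. X genes had a median of 20.2 covered T positions per read, against 15.5 on chromosome 19 and 18.9 for all genes tested.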
